A study of Mus musculus with 11 samples.

Results

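Amphiregulin and 7 further genes of growth factor signalling were followed across 3 splenic CD4+ T cell populations of the mouse. The set holds 5 genes for secreted factors (Areg, Csf1, Hgf, Vegfc and Angptl2), the receptor genes Igf1r and Igf2r, and Igfbp4, whose product binds insulin-like growth factors. They were taken by name, with earlier differences between these populations in view, and the row of each was selected on its mean level: it is the probe set that carries a RefSeq transcript of the gene and has the highest mean over the 11 arrays. This found 8 genes of the 909 named on the array, with 11 probe sets among 1246. That mean decided only Csf1, where the chosen probe set averaged 7.41 against 5.81 for the other, and Igfbp4, where it averaged 11.34 against 11.32 and 10.66. Counts over the 8 genes describe that choice and are not independent evidence.

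The sort gave CD25+ CD45RBlow cells, labelled as regulatory (Treg, replicates 1, 2 and 4, n = 3), and from CD25- cells a CD45RBlow and a CD45RBhigh fraction (n = 4 each). All came from female C57BL/6 mice with no treatment or transgene named, aged 4 to 6 weeks for the CD25- samples and of an age not given for the Treg samples. CD25 is a chain of the receptor for interleukin-2, and CD45RB, a form of the phosphatase CD45, is high on naive T cells. Every sample has 1 array, of a custom design centred on glycan-related genes. Whether replicates are separate animals or pools is not stated, so the p-values reflect only how these samples spread, which may be technical.

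Growth factors of this kind are secreted, or shed from the cell surface, and act on receptors of neighbouring cells. Regulatory T cells are known, besides their suppressive role, as a source of amphiregulin in injured muscle and lung. Amphiregulin acts on the epidermal growth factor receptor. Insulin-like growth factors signal through the tyrosine kinase encoded by Igf1r, while binding proteins limit how much free ligand reaches it. The scavenging receptor encoded by Igf2r does so for the product of Igf2. A level here is the log2 intensity of 1 probe set, made by Robust Multichip Average (RMA), and levels of different genes are not compared because probes differ in brightness.

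Of the whole table, 18.9% of probe sets passed an adjusted p of 0.05 between Treg and CD45RBhigh cells (10.3% higher and 8.59% lower in Treg), 12.5% between Treg and CD45RBlow cells (6.74% and 5.78%) and 12.6% between CD45RBlow and CD45RBhigh cells (7.62% and 4.98%). With the replicate number as a block these shares were 26.5%, 19.7% and 21.7%. Il2ra, which encodes CD25, averaged 9.84 in Treg, 6.17 in CD45RBlow and 4.07 in CD45RBhigh arrays. The sort set Treg apart by CD25 and put both other populations in the CD25- gate, yet Il2ra was also higher in CD45RBlow than in CD45RBhigh cells by 2.10 (limma adjusted p = 1.3e-05). It thus had an intermediate level in CD45RBlow cells, as Areg, Igf1r and Igfbp4 did, and its part in those results was not tested. Array medians lay between 4.85 and 4.94. Replicates 3 and 4 (Treg, 4 alone) were also set against 1 and 2, with 20.6% of probe sets different between these replicate sets when population was in the model. No label names these sets or gives a reason for the split, so p-values for it only describe these arrays. In CD45RBhigh cells the split was not clear: the SD of the difference over probe sets was 0.229 between replicates 3 and 4 and 0.238 between 2 and 3.

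Markers of other cells were read from lists of genes, as the mean log2 level over the measured genes of a list. The myeloid and dendritic list (11 of 21 measured) lay at 3.48 to 3.60 in Treg, 3.48 to 3.56 in CD45RBlow and 3.56 to 3.66 in CD45RBhigh arrays, and the endothelial and stromal list (6 of 13) at 3.34 to 3.40, 3.21 to 3.39 and 3.34 to 3.41. Of the endothelial and stromal genes 0 passed in any comparison by limma, with 0 at an unadjusted p under 0.05, and of the myeloid genes 1, 0 and 2 passed, all lower in the first-named population. In these lists 7 and 4 genes averaged below 3.64, the first quartile of all values, read here as near background. The B cell list (3 of 8) lay at 5.91 to 6.01, 5.64 to 5.88 and 5.61 to 5.77, with 2 of 3 genes higher in Treg than in CD45RBhigh cells, and with 1 higher and 1 lower than in CD45RBlow cells. In CD45RBlow against CD45RBhigh cells 1 passed, Cd22, higher by 0.59 (adjusted p = 0.00015). Of these Cd72 was higher in Treg than in CD45RBhigh cells by 0.54 and than in CD45RBlow cells by 0.85 (limma adjusted p = 0.0173 and 0.00154). The first of these calls ended without Treg replicate 1 (0.46, adjusted p = 0.0815). The platelet and erythroid list (3 of 8) lay at 4.20 to 4.67, 4.11 to 4.32 and 4.11 to 4.38, with Selp higher in Treg by 0.37 and 0.48 (adjusted p = 0.0152 and 0.00490). Without Treg replicate 4 the first fell short of the threshold (0.28, adjusted p = 0.0572). The natural killer and CD8 T cell list (5 of 10) lay at 3.38 to 3.54, 4.55 to 4.91 and 4.73 to 4.97, with 3 genes lower in Treg than in CD45RBhigh cells and 2 lower than in CD45RBlow cells. Klrd1 was in both counts, by -5.29 and -4.35, with means of 3.93, 8.28 and 9.22 in Treg, CD45RBlow and CD45RBhigh arrays. The others differed less, Klra3 and Klra8 by -0.45 and -0.40 against CD45RBhigh cells and Klrc1 by -0.99 against CD45RBlow cells. In this list 2 of 5 genes averaged below 3.64, among them Klra3, at 2.61, 2.98 and 3.05 in Treg, CD45RBlow and CD45RBhigh arrays. Between CD45RBlow and CD45RBhigh cells Klrc1 was higher by 0.59 and Klrd1 lower by -0.94 (adjusted p = 0.0188 and 0.00581). Of the basophil and mast cell list 2 of 7 were measured, Kit, given with the growth factor families, and Siglecf, at 2.52, 2.45 and 2.48. In sorted bulk RNA, fewer cells of a type and less RNA per cell cannot be told apart, and the part of these markers in the results was not tested.

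All 8 genes passed the threshold between Treg and CD45RBhigh cells, 7 higher and 1 lower in Treg, beside 18.9% of all probe sets, and 7 passed between Treg and CD45RBlow cells, 6 higher and 1 lower, beside 12.5%. Between CD45RBlow and CD45RBhigh cells 3 passed, 2 higher and 1 lower, beside 12.6%. The populations did not overlap at 8, 7 and 4 of the genes, beside 25%, 21.3% and 17.8% of all probe sets. The median difference of the 8 genes was 1.00, 0.68 and 0.09 on the log2 scale, beside -0.04, 0.04 and -0.08 over all probe sets.

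**Figure D1:**
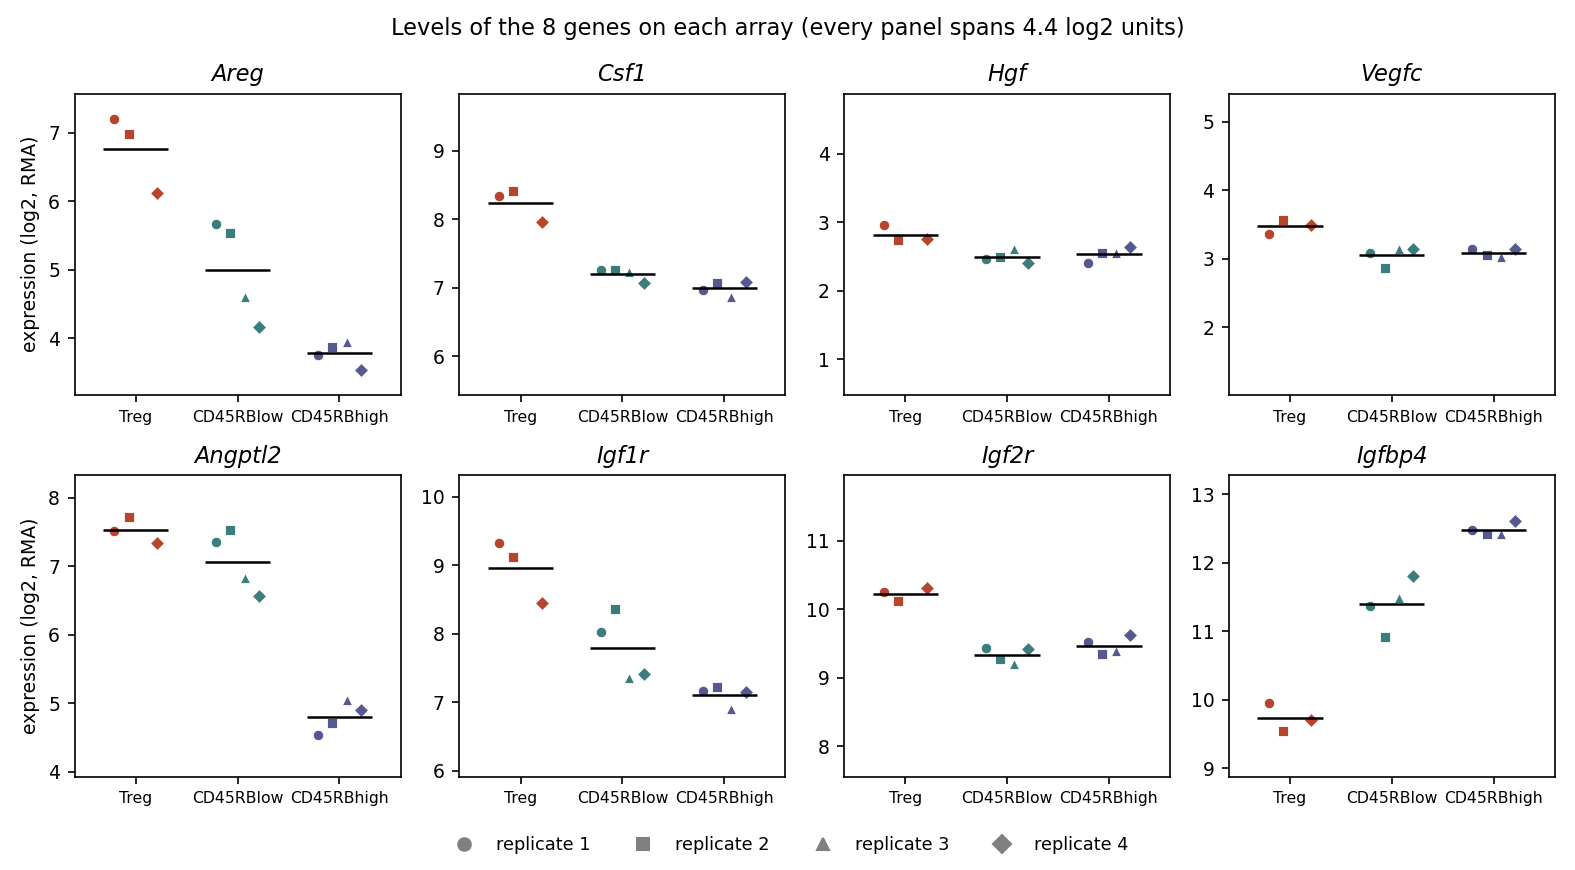
Levels of the 8 genes on each array in log2 units (RMA). Each point is 1 array, its shape gives the replicate number, the bar is the population mean, and every panel spans the same number of log2 units. Treg arrays read highest for 7 genes and lowest for Igfbp4, while the Angptl2 level of CD45RBlow arrays, at 6.56 to 7.53, overlaps that of Treg arrays, at 7.34 to 7.71.

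Areg encodes amphiregulin, a membrane-anchored ligand of the epidermal growth factor receptor that is shed by proteolysis. Its level was 7.21, 6.98 and 6.13 in Treg arrays (replicates 1, 2 and 4), 5.67, 5.54, 4.61 and 4.17 in CD45RBlow arrays (replicates 1 to 4), and 3.76, 3.87, 3.95 and 3.54 in CD45RBhigh arrays. Every Treg array lay above every CD45RBlow array, and every CD45RBlow array above every CD45RBhigh array. Areg was higher in Treg than in CD45RBhigh cells by 2.99 on the log2 scale (SE 0.36, 95% interval 2.20 to 3.78, limma adjusted p = 9.05e-05), or 7.94-fold. The CD45RBhigh mean of 3.78 is just above the 3.64 used for near background, so that fold may be understated. The difference of 2.99 ranked 13 by size among 1246 probe sets. Against CD45RBlow cells it was 3.42-fold higher in Treg (1.77, SE 0.36, adjusted p = 0.00643).

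CD45RBlow cells were in turn 2.32-fold higher than CD45RBhigh cells (1.21, SE 0.33, adjusted p = 0.0352), a fold that may likewise be understated. With the replicate number as a block the adjusted p was 0.000937. Without the block, leaving out each array kept the difference at 0.99 to 1.49 but the call ended without CD45RBlow replicate 1 (0.99, adjusted p = 0.103) or 2 (1.03, 0.102), without any 1 of the CD45RBhigh replicates (1.13 to 1.27, adjusted p = 0.0557 to 0.0802) and without Treg replicate 2, which enters through the shared spread (adjusted p = 0.0515). The difference between same-numbered arrays was positive in 4 of 4 numbers, from 0.62 to 1.91. The Areg level of CD45RBlow cells averaged 4.39 in replicates 3 and 4 against 5.61 in replicates 1 and 2, whereas CD45RBhigh cells read 3.75 and 3.82. Over all populations replicates 3 and 4 were lower by 0.72 (SE 0.18, adjusted p = 0.0143), beside 20.6% of all probe sets that differed. Within replicates 3 and 4 alone, CD45RBlow over CD45RBhigh cells was 0.64 (adjusted p = 0.236).

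The upstream sequences of 4 genes are shown because these genes changed most between the populations, 3 of them higher and 1 lower in Treg. Each is the 250 bases before the annotated start of the gene in GRCm38.p6, from RefSeq, 5′ to 3′ on the strand of the gene. Capitals mark matches, on either strand, to 6 motifs.
Areg, chr5:91139349-91139598, plus strand: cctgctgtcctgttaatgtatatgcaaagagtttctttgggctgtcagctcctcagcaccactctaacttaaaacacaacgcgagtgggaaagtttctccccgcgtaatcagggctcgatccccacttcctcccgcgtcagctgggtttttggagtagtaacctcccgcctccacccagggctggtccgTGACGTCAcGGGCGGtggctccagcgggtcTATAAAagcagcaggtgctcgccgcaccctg
Angptl2, chr2:33215711-33215960, plus strand: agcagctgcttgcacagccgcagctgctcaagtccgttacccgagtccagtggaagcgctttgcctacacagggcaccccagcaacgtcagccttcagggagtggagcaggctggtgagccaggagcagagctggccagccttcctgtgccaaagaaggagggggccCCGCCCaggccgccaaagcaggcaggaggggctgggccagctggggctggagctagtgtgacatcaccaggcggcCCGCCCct
Igf1r, chr7:67952007-67952256, plus strand: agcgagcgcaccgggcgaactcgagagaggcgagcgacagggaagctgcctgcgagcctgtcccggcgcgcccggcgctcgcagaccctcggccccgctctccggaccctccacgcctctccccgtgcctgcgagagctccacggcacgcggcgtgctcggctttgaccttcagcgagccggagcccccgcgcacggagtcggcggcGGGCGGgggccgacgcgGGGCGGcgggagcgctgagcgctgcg
Igfbp4, chr11:99040994-99041243, plus strand: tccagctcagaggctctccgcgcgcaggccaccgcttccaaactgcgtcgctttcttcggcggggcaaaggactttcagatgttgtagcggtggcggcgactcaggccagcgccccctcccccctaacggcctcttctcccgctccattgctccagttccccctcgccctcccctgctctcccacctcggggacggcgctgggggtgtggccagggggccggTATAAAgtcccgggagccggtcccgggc
The motifs searched were the cyclic AMP response element TGACGTCA (in 1.55% of 32851 such windows), the AP-1 site TGANTCA (6.75%), the forkhead core GTAAACA (3.17%), the STAT site TTCNNNGAA (7.02%), the GC box GGGCGG (32.7%) and the TATA box TATAAA (12.4%). The response element, in the Areg window from base -61 to -54, was found in no other of the 8 genes. The GC box was found in 6 of them, Igfbp4 and Hgf being the exceptions, and the TATA box in the windows of Areg and Igfbp4, at -31 to -26 and -28 to -23. The forkhead core was found upstream of Hgf only, in its window at chr5:16553245-16553494 and not in the other window of that gene. The AP-1 and STAT sites were found in none of the 8 genes. A match describes the letters of these windows and is not evidence of a bound site.

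Csf1 encodes macrophage colony-stimulating factor, the ligand that keeps macrophages alive through the receptor Csf1r. It read 8.33, 8.40 and 7.96 in Treg, 7.26, 7.26, 7.22 and 7.07 in CD45RBlow and 6.96, 7.06, 6.86 and 7.08 in CD45RBhigh arrays. Treg arrays stood above all others, and the CD25- populations overlapped. Csf1 was 2.36-fold higher in Treg than in CD45RBhigh cells (1.24, SE 0.11, adjusted p = 5.53e-06) and 2.04-fold higher than in CD45RBlow cells (1.03, SE 0.11, adjusted p = 4.57e-05). Between CD45RBlow and CD45RBhigh cells the difference was 0.21 with a 95% interval from -0.00 to 0.43 (adjusted p = 0.181).

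The dimmer Csf1 probe set, whose ID has the suffix s for probes that can match more than 1 transcript, read 6.98, 6.87 and 6.39 in Treg, 5.74, 5.72, 5.72 and 5.68 in CD45RBlow and 5.20, 5.42, 5.09 and 5.14 in CD45RBhigh arrays. Here every CD45RBlow array lay above every CD45RBhigh array. It gave 1.53 and 1.03 for Treg against CD45RBhigh and CD45RBlow cells, and a difference of 0.50 (SE 0.12, adjusted p = 0.0156) between CD45RBlow and CD45RBhigh cells, which the brighter probe set did not call.

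**Figure D2:**
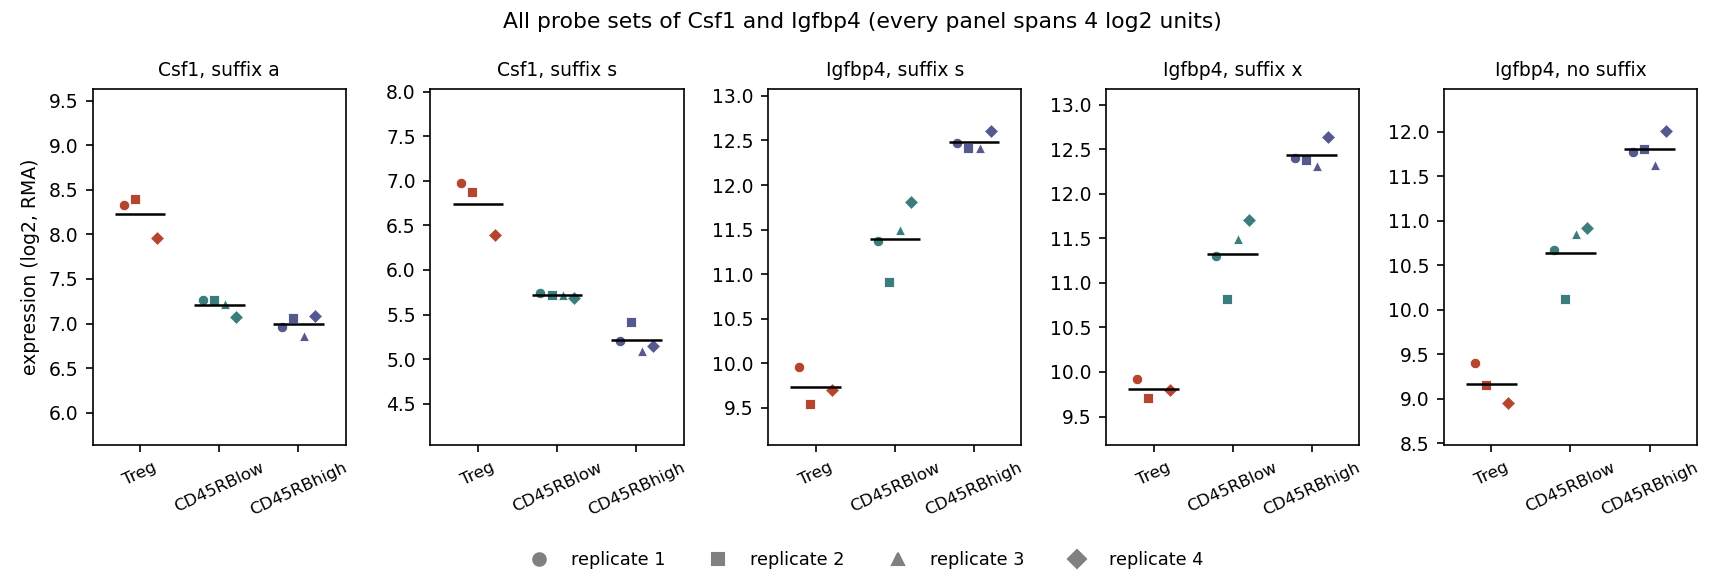
Levels of the 2 probe sets of Csf1 and the 3 of Igfbp4 on each array, in log2 units (RMA), with points for arrays, shapes for replicate numbers and bars for population means. For Csf1 the probe set with suffix a leaves the CD25- populations overlapping and that with suffix s separates them, and all 3 for Igfbp4 give the order Treg, CD45RBlow, CD45RBhigh from low to high.

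Hgf encodes hepatocyte growth factor, the ligand of the receptor tyrosine kinase Met, and Vegfc a growth factor of lymphatic vessels. Hgf read 2.96, 2.75 and 2.76 in Treg, 2.47, 2.49, 2.62 and 2.40 in CD45RBlow and 2.41, 2.56, 2.55 and 2.64 in CD45RBhigh arrays. Vegfc read 3.36, 3.57 and 3.49 in Treg, 3.09, 2.86, 3.14 and 3.14 in CD45RBlow and 3.14, 3.06, 3.03 and 3.14 in CD45RBhigh arrays. All these means lay below the first quartile of 3.64, so both genes were near background in every population, and their presence in these cells is not shown.

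The Treg arrays were nevertheless above all others for both. Hgf was higher by 0.28 and 0.32 than in CD45RBhigh and CD45RBlow cells (SE 0.08 each, adjusted p = 0.0294 and 0.0200), and Vegfc by 0.38 and 0.42 (SE 0.08 each, adjusted p = 0.00644 and 0.00518). For Hgf the call against CD45RBhigh cells ended without Treg replicate 1 (0.21, adjusted p = 0.125) and without CD45RBhigh replicate 1, 2 or 3 (adjusted p = 0.0714, 0.0530 and 0.0567). That against CD45RBlow cells ended without Treg replicate 1 (0.26, adjusted p = 0.0937) and without CD45RBlow replicate 1 or 4 (adjusted p = 0.0521 and 0.0546). Met, the receptor gene for the Hgf product, read 2.46, 2.55 and 2.53 on average in Treg, CD45RBlow and CD45RBhigh arrays, also near background.

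Angptl2 encodes a secreted protein of the angiopoietin-like family that is linked to inflammation in adipose and vascular tissue. Its level was 7.52, 7.71 and 7.34 in Treg, 7.36, 7.53, 6.82 and 6.56 in CD45RBlow and 4.54, 4.71, 5.04 and 4.90 in CD45RBhigh arrays. Its pattern differed from that of the other secreted factors, in that CD45RBlow and Treg arrays overlapped and CD45RBhigh arrays lay apart from both. Between same-numbered arrays it was higher in Treg than in CD45RBlow cells in 3 of 3 numbers, by 0.16 to 0.77. The gene was 6.60-fold higher in Treg than in CD45RBhigh cells (2.72, SE 0.22, adjusted p = 3.09e-06) and 4.82-fold higher in CD45RBlow than in CD45RBhigh cells (2.27, SE 0.20, adjusted p = 1.40e-05). Between Treg and CD45RBlow cells the difference was 0.45, with a 95% interval from -0.02 to 0.93 (adjusted p = 0.246).

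CD45RBlow arrays averaged 6.69 in replicates 3 and 4 against 7.44 in replicates 1 and 2, so that the CD45RBlow over CD45RBhigh difference was 1.72 in replicates 3 and 4 and 2.82 in replicates 1 and 2. The gene lies within the span of Ralgps1 in the annotation and its only probe set has the suffix s, so a share of signal from the overlapping gene was not tested.

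Igf1r encodes the receptor tyrosine kinase for insulin-like growth factors. It read 9.32, 9.12 and 8.45 in Treg, 8.02, 8.36, 7.35 and 7.41 in CD45RBlow and 7.16, 7.23, 6.91 and 7.15 in CD45RBhigh arrays. The 3 populations did not overlap, in the same order as for Areg. Igf1r was 3.62-fold higher in Treg than in CD45RBhigh cells (1.85, SE 0.26, adjusted p = 0.000286) and 2.27-fold higher than in CD45RBlow cells (1.18, SE 0.26, adjusted p = 0.00986). The call against CD45RBlow cells ended without Treg replicate 1 (1.00, adjusted p = 0.0548).

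Between CD45RBlow and CD45RBhigh cells Igf1r differed by 0.67 (SE 0.24), which did not pass (adjusted p = 0.0969) but passed with the replicate number as a block (adjusted p = 0.00592). All 4 same-numbered pairs were positive, from 0.26 to 1.13. As for Areg, the Igf1r level was lower in replicates 3 and 4 than in replicates 1 and 2, by 0.56 (SE 0.12, adjusted p = 0.00528), with CD45RBlow means of 7.38 and 8.19 in these sets. For the other 6 genes the difference between the replicate sets had an adjusted p of 0.147 or more.

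Igf2r encodes the cation-independent mannose 6-phosphate receptor, which sorts lysosomal enzymes and carries the growth factor encoded by Igf2 to degradation. Its level was 10.25, 10.12 and 10.32 in Treg, 9.44, 9.27, 9.20 and 9.42 in CD45RBlow and 9.52, 9.34, 9.40 and 9.63 in CD45RBhigh arrays. Treg arrays lay above all others, and the CD25- populations overlapped. The gene was 1.69-fold higher in Treg than in CD45RBhigh cells (0.76, SE 0.09, adjusted p = 8.26e-05) and 1.87-fold higher than in CD45RBlow cells (0.90, SE 0.09, adjusted p = 3.85e-05). CD45RBlow cells differed from CD45RBhigh cells by -0.14 (95% interval -0.32 to 0.04, adjusted p = 0.277). In the annotation the gene overlaps Airn, a noncoding RNA of the same locus. Csf1, Hgf and Igf1r overlap genes of noncoding RNAs as well, and Vegfc overlaps a protein-coding gene, Gm33153. A share of signal from these overlapping genes was not tested.

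Igfbp4 encodes a secreted protein that binds insulin-like growth factors and keeps them from their receptor. It was lower in Treg than in either CD25- population, whereas both receptor genes were higher in Treg. Its level was 9.96, 9.55 and 9.70 in Treg, 11.38, 10.92, 11.49 and 11.81 in CD45RBlow and 12.48, 12.42, 12.42 and 12.61 in CD45RBhigh arrays, with no overlap between any 2 populations. Igfbp4 was 3.16-fold lower in Treg than in CD45RBlow cells (-1.66, SE 0.17, adjusted p = 5.22e-05). CD45RBlow cells were 2.12-fold lower than CD45RBhigh cells (-1.08, SE 0.16, adjusted p = 0.000699), and Treg cells 6.71-fold lower than CD45RBhigh cells (-2.75, SE 0.17, adjusted p = 4.78e-07).

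The chosen probe set of Igfbp4 has the suffix s, and the gene's probe set without a suffix gave the same order at lower levels. It averaged 9.17 in Treg, 10.64 in CD45RBlow and 11.80 in CD45RBhigh arrays. Its differences were -2.63 for Treg and -1.16 for CD45RBlow against CD45RBhigh cells, and -1.47 for Treg against CD45RBlow cells, and the probe set with the suffix x gave -2.63, -1.11 and -1.52. Replicate 2 had the lowest level of the CD45RBlow arrays on all 3 probe sets.

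**Figure D3:**
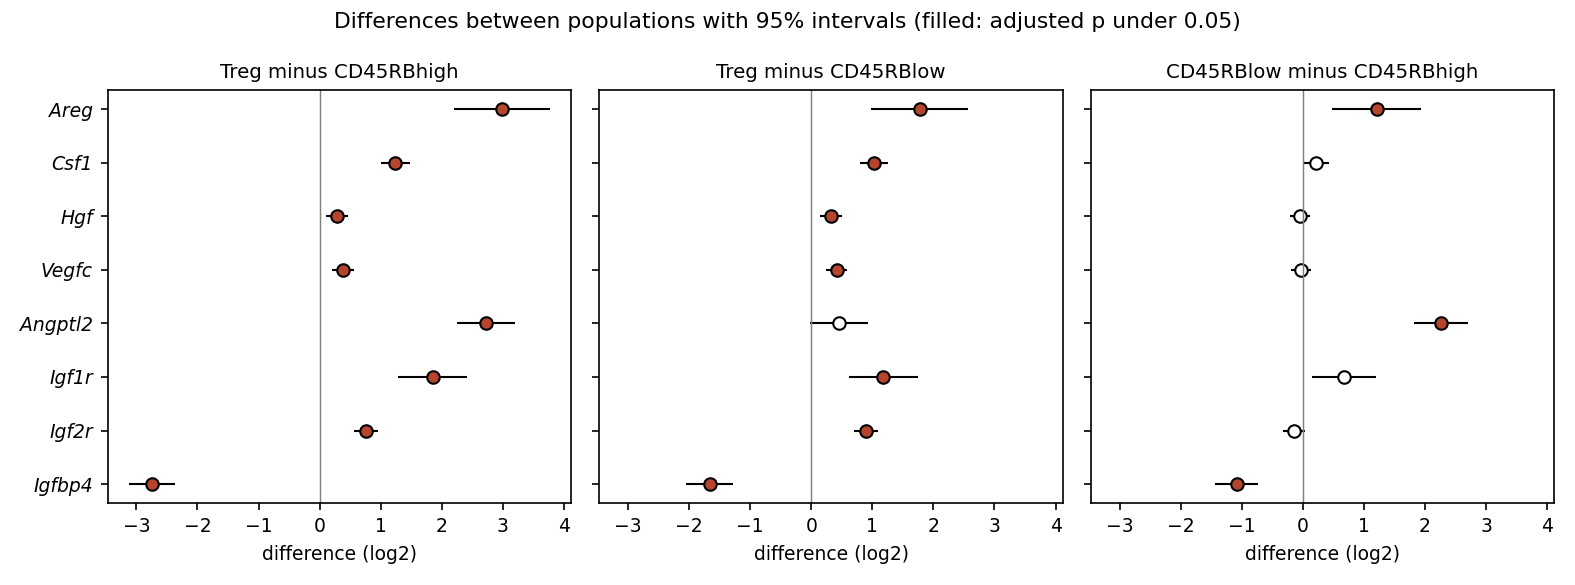
Differences between populations in log2 units for the 8 genes, with points for the limma estimate, lines for its 95% interval and filled points for an adjusted p under 0.05. In Treg minus CD45RBlow only Angptl2 (0.45) is open, Hgf and Vegfc being near background in all populations, and in CD45RBlow minus CD45RBhigh only Areg, Angptl2 and Igfbp4 are filled.

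The other genes of these families on the array were read for comparison. Of 111 gene names in 6 lists 75 were measured, 67 of them besides the 8 genes. Of the 67, 2 rose and 1 fell in Treg against CD45RBhigh cells (4.48%), 2 rose and 2 fell against CD45RBlow cells (5.97%), and 1 was higher in CD45RBlow than in CD45RBhigh cells (1.49%), beside 18.9%, 12.5% and 12.6% of all probe sets. With the replicate block the counts were 7, 6 and 4. Without Treg replicate 1 the count against CD45RBlow cells was 2, and without CD45RBhigh replicate 3 or 4 that of CD45RBlow against CD45RBhigh cells was 2.

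In the IGF axis limma called 0 of 9 other genes in each of the 3 comparisons, with 1, 2 and 1 at an unadjusted p under 0.05. Igf1, the main circulating ligand of Igf1r, averaged 2.51 in Treg, 2.57 in CD45RBlow and 2.57 in CD45RBhigh arrays, near background throughout. Igf2, the other ligand gene measured, averaged 5.82, 5.89 and 5.75 in the same order, above the 3.64 used for near background. By limma it was not called in Treg against CD45RBhigh, Treg against CD45RBlow or CD45RBlow against CD45RBhigh cells (adjusted p = 0.57, 0.65 and 0.18). Igfbp7, a binding protein of low affinity, read 5.84, 5.96 and 6.17 in Treg, 4.94, 5.01, 4.97 and 6.03 in CD45RBlow and 4.92, 4.846, 4.999 and 5.83 in CD45RBhigh arrays. Replicate 4 of each CD25- population stood near the Treg arrays, and the other CD25- arrays lay lower. Its difference was 0.84 in Treg against CD45RBhigh (adjusted p = 0.0725) and 0.75 against CD45RBlow cells (adjusted p = 0.136), and both passed with the replicate block (adjusted p = 0.00162 and 0.00493).

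Without replicate 4 of the CD25- population compared, the Igfbp7 difference was 1.07 against CD45RBhigh cells (adjusted p = 0.0156) and 1.02 against CD45RBlow cells (adjusted p = 0.0148). In the EGF family 0 of 5 other genes were called in each comparison, with 1, 0 and 2 at an unadjusted p under 0.05. Hbegf, a further ligand of the epidermal growth factor receptor, differed by 0.50 between Treg and CD45RBhigh cells (adjusted p = 0.0510, or 0.00240 with the replicate block). Egfr itself averaged 3.33 in Treg, 3.29 in CD45RBlow and 3.29 in CD45RBhigh arrays, near background.

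In the CSF list 9 other genes were measured. Kit, the receptor of stem cell factor, was higher in Treg than in CD45RBhigh cells by 0.70 (SE 0.12, adjusted p = 0.00163) and than in CD45RBlow cells by 0.59 (SE 0.12, adjusted p = 0.00732). Its means of 3.85 in CD45RBlow and 3.74 in CD45RBhigh arrays are close to background, so these sizes may be understated. Flt3l, a growth factor of dendritic cells, was lower in Treg by -0.61 against each (SE 0.15, adjusted p = 0.0147 and 0.0209). These Flt3l calls ended without Treg replicate 1 (-0.57 for each comparison, adjusted p = 0.0603 and 0.0861) or 2 (-0.51 for each, adjusted p = 0.0738 and 0.0985). Csf2, which encodes the cytokine GM-CSF, was higher in CD45RBlow cells than in either other population, by 0.97 over CD45RBhigh cells (SE 0.14, adjusted p = 0.000699), and Treg minus CD45RBlow was -0.89 (SE 0.15, adjusted p = 0.00244). Csf1r, the receptor for the Csf1 product and a macrophage marker, averaged 5.07, 5.03 and 5.02 in Treg, CD45RBlow and CD45RBhigh arrays.

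In the VEGF and angiopoietin list limma called 0 of 11 other genes in each comparison, with 2, 1 and 6 at an unadjusted p under 0.05, and Angptl2 was the 1 of 6 angiopoietin-like genes measured that was called. Of 32 FGF and PDGF genes Pdgfb, a growth factor of pericytes and fibroblasts, was called, higher in Treg by 0.36 against CD45RBhigh (SE 0.07, adjusted p = 0.00557) and by 0.27 against CD45RBlow cells (SE 0.07, adjusted p = 0.0355). The second of these calls ended without Treg replicate 1 or 4 (0.22 and 0.24, adjusted p = 0.150 and 0.120), without CD45RBlow replicate 2, 3 or 4 (adjusted p = 0.0800, 0.0717 and 0.0935) or without CD45RBhigh replicate 3 (adjusted p = 0.0542).

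**Figure D4:**
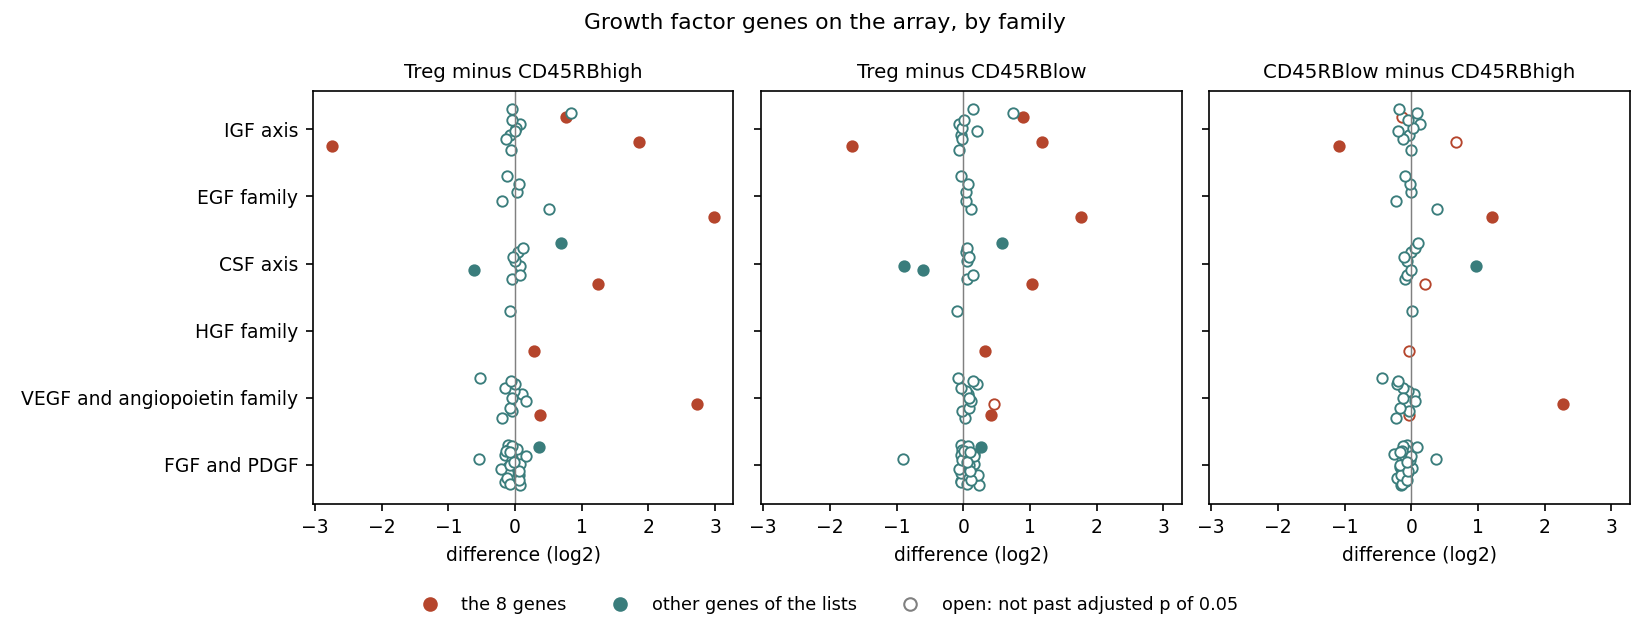
Differences between populations in log2 units for the 75 measured genes of 6 growth factor families, with 1 point per gene, filled where the adjusted p is under 0.05. Most of the 67 other genes lie near 0, with a median size of 0.07 in both Treg comparisons and 0.10 in CD45RBlow minus CD45RBhigh. The 8 genes reach from -2.75 to 2.99, but they were chosen with earlier differences in view, so this contrast describes that choice. Of the 67 other genes, 44 remain when dim probe sets are left out.

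The genes most like each of the 5 genes that varied at least 2-fold were found by the root mean square difference, over the 11 arrays, between their log2 levels after each was centred on its own mean. For Areg these were Il1r2 (0.22), Il10 (0.35) and Ccr6 (0.46), beside a root mean square deviation of Areg itself of 1.27. Il1r2, a decoy receptor for interleukin-1, averaged 8.82 in Treg, 6.72 in CD45RBlow and 5.56 in CD45RBhigh arrays. For Angptl2 they were Cxcr5 (0.24), Chst2 (0.32) and Bmp7 (0.37), beside 1.23. Cxcr5, a chemokine receptor that guides cells to B cell follicles, averaged 8.18, 7.94 and 5.84 in the same order, so it too was close in Treg and CD45RBlow arrays and lower in CD45RBhigh arrays.

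For Csf1 the nearest genes were B4galt4 (0.15), Havcr2 (0.18) and Ccl1 (0.18), beside 0.53, and for Igf1r they were Il18 (0.27), Prdm1 (0.31) and Ggta1 (0.31), beside 0.80. Igfbp4 was nearest to Tgfbr3 (0.28), Acvrl1 (0.30) and Ust (0.31), beside 1.11. Tgfbr3, a co-receptor of TGF-beta, averaged 7.43, 9.69 and 10.41 in Treg, CD45RBlow and CD45RBhigh arrays. These distances rest on arrays that share the population differences and the replicate sets.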

How the data were processed

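The authors deposited log2 levels for each probe set, computed from array intensities with Robust Multichip Average (RMA), per the series' design text and the submitters' processing notes. Its version is not given in the sources used here. The table holds 1246 probe sets and 11 arrays, and no further normalization or filter was applied. RefSeq identifiers named 963 probe sets and 909 genes, and 283 stayed unnamed. All arrays entered 1 fit with a mean for each population, made with limma 3.58.1 (R 4.3.3, empirical Bayes, prior degrees of freedom 2.87, residual 8), two-sided, adjusted by Benjamini-Hochberg within each comparison over all 1246 probe sets. Adjusted p-values in the text come from this fit unless another is named, and intervals are at 95%. The fit was tested on simulated data with independent noise on each array, which leaves out deviations shared by same-numbered arrays. Precision is limited by how few arrays there are.

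The members and lists were chosen with earlier results of these data known. The text names the 8 genes, up to 4 genes per list and comparison past the threshold by smallest adjusted p, and the 3 genes most alike to each of the 8 whose population means spanned at least 1 log2 unit. Igfbp7, Hbegf, Igf1, Igf2, Egfr, Met and Csf1r, and the markers Il2ra, Cd22, Klrc1, Klrd1, Cd72, Selp and Siglecf, were named after their values were seen. Replicate numbers in the labels were checked for pairing: deviations of same-numbered arrays from their population means correlated at 0.31 to 0.56 in every pair. A blocked fit is therefore given for the 8 genes, Igfbp7 and Hbegf where it changes a call. For the remaining growth factor genes it is given only as counts. Upstream windows came from RefSeq (GRCm38.p6), where all 8 genes matched, and windows on chromosome 18 were not used here. Plots used matplotlib 3.10.9 and Python 3.11.15.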

Additional observations from a re-analysis of the deposited data

Results flagged for a closer look

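B4galt4, a galactosyltransferase gene named for its likeness to Csf1, read 4.06 in CD45RBhigh replicate 3, and the nearest of the other 3 arrays read 4.31. The gap took 0.85 of the range of the group, above Dixon's critical value. This was 1 of 54 groups of 4 arrays tested, over 27 genes, and chance gives about 1 in 20. The groups of 3 Treg arrays were not tested.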

How the results depend on the processing

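Of the 8 genes the counts called were 8 and 7 for Treg cells against the CD45RBhigh and CD45RBlow populations, and 3 between the CD25- populations. Within replicates 3 and 4 alone, where 1 Treg array is assumed to vary like the other arrays, they were 5, 3 and 1, and leaving out each array in turn gave 7 to 8, 5 to 7 and 2 to 3. With the replicate block they were 8, 7 and 4. Apart from the Igf1r, Igfbp7 and Hbegf calls given above, the block changed no call of the 8 genes or of Kit, Flt3l, Csf2 and Pdgfb in the comparisons given. The Vegfc difference of CD45RBlow against CD45RBhigh cells, -0.036, turned to 0.051 within replicates 3 and 4, and leaving out each array gave -0.063 to 0.029, above 0 only without CD45RBlow replicate 2, not called in any of these fits. Leaving out dim probe sets removed Hgf and Vegfc. Hgf against CD45RBhigh cells also missed the threshold with arrays centred on the median (adjusted p = 0.0508) and with only the 2 populations in the fit (adjusted p = 0.0562).

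Within replicates 1 and 2 alone, Kit missed the threshold in both Treg comparisons (adjusted p = 0.0525 and 0.132), as did Vegfc in Treg against CD45RBhigh cells (adjusted p = 0.0592) and Pdgfb in both (adjusted p = 0.0927 and 0.329). Within replicates 3 and 4 alone, calls of Treg against CD45RBhigh cells were lost for Hgf, Vegfc and Igf2r (adjusted p = 0.567, 0.105 and 0.0664) and for Flt3l and Pdgfb (0.259 and 0.0781). Against CD45RBlow cells they were lost for Csf1, Hgf, Vegfc and Igf2r (adjusted p = 0.0656, 0.413, 0.161 and 0.0533) and for Kit, Flt3l, Csf2 and Pdgfb (0.0692, 0.269, 0.0856 and 0.138). Between the CD25- populations they were lost there for Areg, as given above, and Igfbp4 (adjusted p = 0.0518).

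The counts over the 67 other genes were less stable. Against CD45RBhigh cells they were 3 in Treg cells as reported, 7 with the replicate block, with the replicate set as a covariate and with quantile normalization repeated, 5 with only the 2 populations, 5 of the 44 that remained without dim probe sets, 6 within replicates 1 and 2, 1 within replicates 3 and 4, and 2 to 4 without each array. Against CD45RBlow cells they were 4 as reported, 2 with only the 2 populations, and in limma 0 within replicates 3 and 4 (with 9 at an unadjusted p under 0.05), and 2 to 4 without each array. For CD45RBlow against CD45RBhigh cells they were 1 as reported, 4 with the block and with quantile normalization, 5 with the replicate set as a covariate, 7 within replicates 1 and 2, and 1 to 2 without each array. These counts and the alternatives for Kit, Flt3l, Csf2, Pdgfb, Igfbp7, Hbegf, Cd72 and Selp were chosen after seeing the data, and the cause of the changes was not tested.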
